A study of Mus musculus with 6 samples.

Results

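Transcripts of 10 transcription factor genes that set the balance between effector and naive or memory T cells were followed in mouse lung. They were chosen by gene symbol: Tbx21, Eomes, Runx3, Prdm1, Id2 and Zeb2 as effector-promoting factors, and Tcf7, Lef1, Bach2 and Id3 as factors of naive or memory cells. Each symbol had 1 row among the 57180 rows of the deposited gene table, and all 10 were among the 16989 genes that passed the filter on low counts. The lungs came from 3 wild-type samples and 3 samples overexpressing FTO (genotype label FTO_OE), an RNA demethylase that acts on N6-methyladenosine. Both groups had been exposed to cigarette smoke in a model of chronic obstructive pulmonary disease, so smoke is shared by all 6 libraries and no value here measures its effect. The question was which lung transcripts differ with FTO overexpression under smoke. How and in which cells FTO was overexpressed, and the strain and age of the mice are not given in the sources. Nothing in the labels says that each library is a separate animal, so p-values measure the spread between these samples, which may be technical.

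T-bet (Tbx21) and Eomesodermin (Eomes) are related T-box factors that switch on cytotoxic genes and cytokine receptors in CD8 T cells and natural killer (NK) cells. Runx3 establishes the CD8 lineage, Blimp-1 (Prdm1), Id2 and Zeb2 drive terminal differentiation, and TCF-1 (Tcf7), LEF-1 (Lef1), Bach2 and Id3 keep cells naive, long-lived or able to renew. None of the 10 is confined to T cells: Id2 and Id3 block E proteins in many tissues, Zeb2 acts in macrophages and mesenchyme, Prdm1 in plasma cells and Bach2 in B cells.

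The libraries held 16731850 to 21444907 counts, and the member with the fewest reads in any library was Eomes, with 28. Fto was at 66.2 to 69.9 CPM (read counts normalised to the effective library size) in the wild-type and at 650.1 to 740.8 CPM in the overexpressing libraries, a fold change of 10.05 (edgeR adjusted p = 1.45e-05). Each library therefore carried the Fto level of its label. Overexpressing replicate 3 had the most T cell marker RNA, with a summed level of 792 CPM over 15 genes against 382 and 496 CPM in the other two, and the least haemoglobin RNA.

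RefSeq promoter sequences (build GRCm38.p6) were found for all 10 members, as 18 windows of the 250 bases before a transcription start. Printed here are windows of the 4 members that passed an adjusted p of 0.05 in DESeq2, the tool with the most calls, all on the gene's own strand. Capitals mark matches, on either strand, to the RUNX core TGTGGT, the TCF and LEF core TCAAAG, the T-box core GGTGTG, the E-box CACCTG that E proteins and ZEB factors can bind, and the GC box GGGCGG. The windows lie at chr11:97115332-97115581 on the minus strand (Tbx21), chr9:118477939-118478188 on the plus strand (Eomes), chr4:135120395-135120644 on the plus strand (Runx3, the upstream of its 2 windows) and chr12:25096093-25096342 on the minus strand (Id2).
Tbx21: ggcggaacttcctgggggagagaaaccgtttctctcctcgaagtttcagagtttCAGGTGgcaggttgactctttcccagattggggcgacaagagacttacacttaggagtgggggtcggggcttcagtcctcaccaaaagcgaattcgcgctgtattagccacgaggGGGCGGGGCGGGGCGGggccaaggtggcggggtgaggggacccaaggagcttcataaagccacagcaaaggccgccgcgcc
Eomes: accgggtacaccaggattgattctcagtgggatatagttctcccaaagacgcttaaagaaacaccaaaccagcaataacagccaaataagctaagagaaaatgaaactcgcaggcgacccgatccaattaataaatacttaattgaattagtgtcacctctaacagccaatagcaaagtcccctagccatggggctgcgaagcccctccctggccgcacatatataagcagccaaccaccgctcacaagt
Runx3: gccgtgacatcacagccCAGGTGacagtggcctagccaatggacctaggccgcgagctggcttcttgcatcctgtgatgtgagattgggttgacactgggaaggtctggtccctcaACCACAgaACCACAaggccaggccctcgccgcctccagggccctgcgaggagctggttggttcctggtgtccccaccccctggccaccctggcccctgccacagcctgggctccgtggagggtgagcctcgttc
Id2: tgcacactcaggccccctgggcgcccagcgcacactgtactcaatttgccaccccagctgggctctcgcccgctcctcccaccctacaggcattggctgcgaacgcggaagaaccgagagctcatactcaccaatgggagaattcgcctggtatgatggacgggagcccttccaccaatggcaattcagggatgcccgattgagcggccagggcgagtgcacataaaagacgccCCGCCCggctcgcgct
The Tbx21 window held 3 overlapping GC boxes, the first beginning 81 bases before the start, and 1 E-box. The Runx3 window held 2 neighbouring RUNX cores and 1 E-box, and none of the other 17 windows held a RUNX core. The Id2 window held 1 GC box, and the Eomes window had no match to these 5 motifs. Among all 32851 windows of this length, 14% held the RUNX core, 13.8% the TCF and LEF core, 16.3% the T-box core, 17.2% the E-box and 32.7% the GC box, so each match is a common one and none shows that a factor binds there.

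Tbx21 rose in FTO-overexpressing lungs and was the only member to pass the test across all genes. It was measured at 2.49, 1.63 and 1.71 CPM in wild-type replicates 1, 2 and 3 and at 10.2, 14.95 and 24.1 CPM in overexpressing replicates 1, 2 and 3. The groups did not overlap, and the lowest overexpressing library lay well above the highest wild-type one. The fitted fold change was 8.44 (95% interval 4.77 to 14.9), a log2 fold change of 3.08 ± 0.35 (SE), with an edgeR quasi-likelihood adjusted p of 0.0362. Its rank by p was 15 among the genes tested. In a bulk sample more cells of a type and more RNA per cell cannot be told apart, here and in every result below. The call rested on few libraries: the edgeR adjusted p was 0.0567, 0.183 and 0.161 without wild-type replicate 1, 2 or 3 and 0.148 and 0.0603 without overexpressing replicate 2 or 3, with a fold change of 6.45 to 10.04 over all 6 fits that leave out a library. It was also lost with limma-voom (adjusted p = 0.157).

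Eomes, the second T-box factor, stood at 1.52, 1.84 and 2.53 CPM in wild-type replicates 1, 2 and 3 and at 3.10, 5.40 and 13.8 CPM in the overexpressing ones. All overexpressing libraries were above the wild-type ones, but replicate 3 was far above the others. The fold change was 3.79 (95% interval 1.59 to 9.05; edgeR adjusted p = 0.266), and 2.16 without that library. Runx3 stood at 6.94, 6.78 and 5.50 CPM against 10.7, 11.5 and 18.5 CPM, again without overlap and highest in overexpressing replicate 3. Its fold change was 2.12 (95% interval 1.45 to 3.10; edgeR adjusted p = 0.161). The T-box pair did not keep a constant proportion: the number of Tbx21 reads per Eomes read was 1.64, 0.886 and 0.674 in wild-type replicates 1, 2 and 3 against 3.30, 2.77 and 1.75 in the overexpressing ones. These 2 sets of ratios came close, at wild-type replicate 1 and overexpressing replicate 3, without overlapping.

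Id2, an inhibitor of E proteins that effector and innate lymphocytes need, separated the groups with little spread inside each. It was at 82.3, 86.2 and 73.4 CPM in wild-type replicates 1, 2 and 3 and at 123, 129 and 152 CPM in the overexpressing ones. The groups lay apart by more than the spread within either. The fold change was 1.67 (95% interval 1.41 to 1.98), with the second smallest p of the members and an edgeR adjusted p of 0.0746, short of the threshold of 0.05.

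Prdm1 and Zeb2, both linked to terminal effector cells, showed no separation. Prdm1 was at 18.0, 24.7 and 22.6 CPM in wild-type replicates 1, 2 and 3 and at 27.0, 24.6 and 29.6 CPM in the overexpressing ones. Its groups overlapped through a single pair of libraries, wild-type replicate 2 and overexpressing replicate 2, and its fold change was 1.24 (95% interval 0.999 to 1.55; edgeR adjusted p = 0.534). Zeb2 was at 166, 162 and 176 CPM against 178, 176 and 178 CPM, a fold change of 1.06 (95% interval 0.942 to 1.18; edgeR adjusted p = 0.814). The interval of Zeb2 was the narrowest among the effector-promoting factors. Markers of other cells that carry these genes were, in summed level, between 371 and 599 CPM in wild-type and between 578 and 723 CPM in overexpressing libraries for 8 monocyte and interstitial macrophage genes, and between 1190 and 3498 CPM against 982 and 2607 CPM for 6 plasma cell genes. None of these 14 genes was at 0 in all libraries, and their part in the levels of Zeb2 and Prdm1 was not tested.

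**Figure D1:**
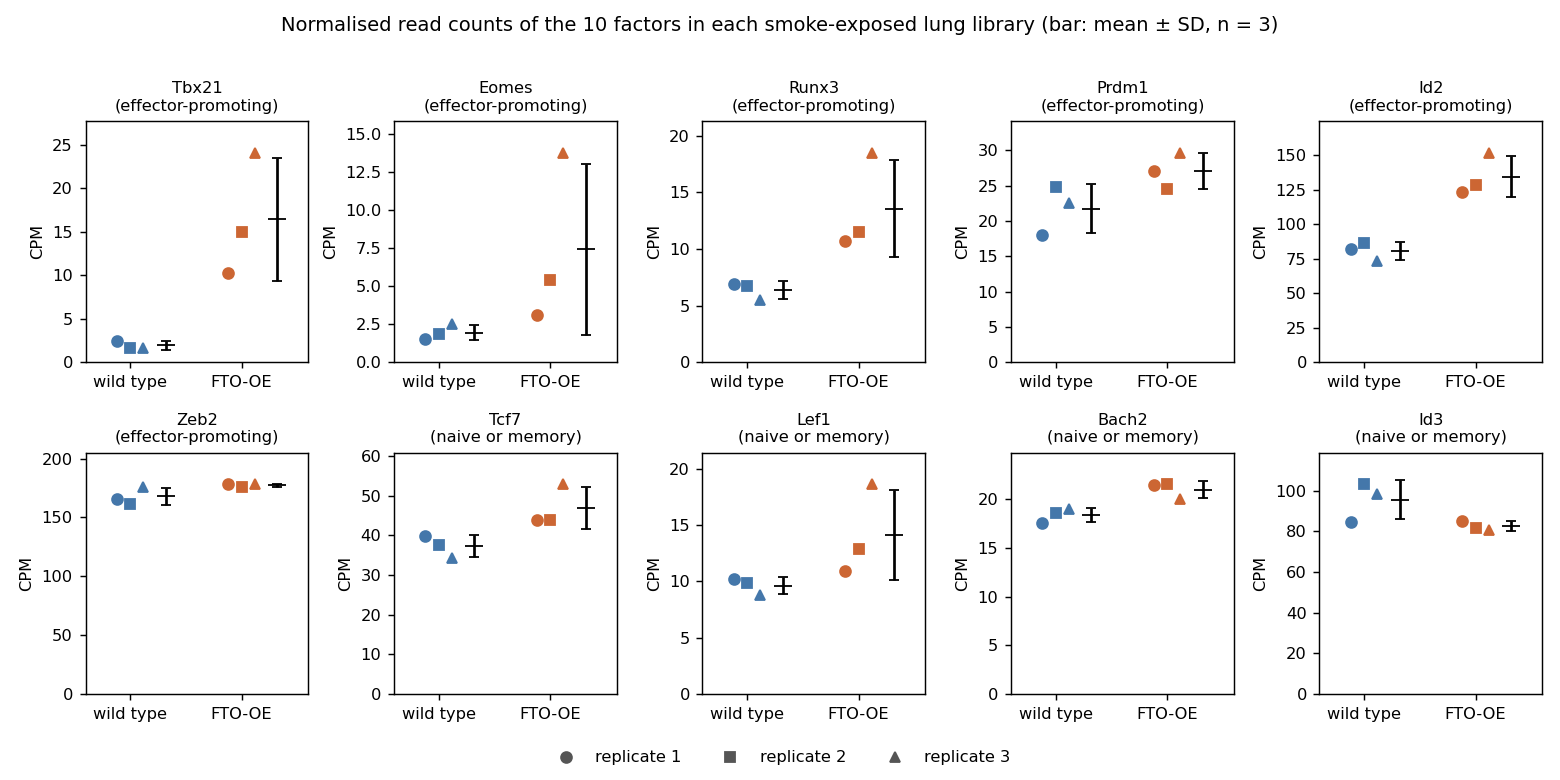
Normalised read counts (CPM, vertical axis from 0) of the 10 factors in each library, wild type in blue and FTO-overexpressing (FTO-OE) in orange, with the mean ± SD of 3 libraries as a bar. Tbx21 runs from 1.63 to 2.49 CPM in wild-type and from 10.2 to 24.1 CPM in overexpressing libraries, Zeb2 overlaps between the groups, and overexpressing replicate 3 (triangle) is the highest library for 8 of the 10 genes.

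The 4 naive or memory factors differed less between the groups, and 0 of 4 passed the edgeR test over all genes. Tcf7, the T cell factor that marks naive and stem-like memory cells, was at 39.8, 37.7 and 34.2 CPM in wild-type replicates 1, 2 and 3 and at 43.7, 43.8 and 52.8 CPM in the overexpressing ones. The groups did not overlap, but the gap was narrow, and the fold change was 1.26 (95% interval 1.06 to 1.49; edgeR adjusted p = 0.345). Lef1, its partner in naive T cells, was at 10.2, 9.87 and 8.75 CPM against 10.9, 12.9 and 18.6 CPM. Its groups were also apart, with overexpressing replicate 1 just above the wild-type range, and the fold change was 1.47 (95% interval 1.05 to 2.05; edgeR adjusted p = 0.446).

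Bach2, a repressor that restrains effector genes, was at 17.6, 18.6 and 19.0 CPM in wild-type replicates 1, 2 and 3 and at 21.4, 21.5 and 20.01 CPM in the overexpressing ones. It was the only member above the wild-type range whose lowest overexpressing value came from replicate 3, and its fold change was 1.14 (95% interval 0.987 to 1.32; edgeR adjusted p = 0.588). The summed level of 8 B cell markers, which share Bach2 expression with T cells, was 57.2 to 152 CPM in wild-type and 98.3 to 105 CPM in overexpressing libraries, with 0 of 8 at an unadjusted p under 0.05. Id3, the counterpart of Id2 in naive and memory cells, was at 84.8, 103 and 98.5 CPM against 85.3, 81.6 and 80.9 CPM. It was the only member with a fold change below 1, at 0.865 (95% interval 0.747 to 1.00; edgeR adjusted p = 0.534), and its groups overlapped at wild-type replicate 1. The number of Id2 reads per Id3 read was 0.970, 0.835 and 0.745 in wild-type replicates 1, 2 and 3 and 1.44, 1.58 and 1.88 in the overexpressing ones, so the balance of the pair differed without overlap.

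**Figure D2:**
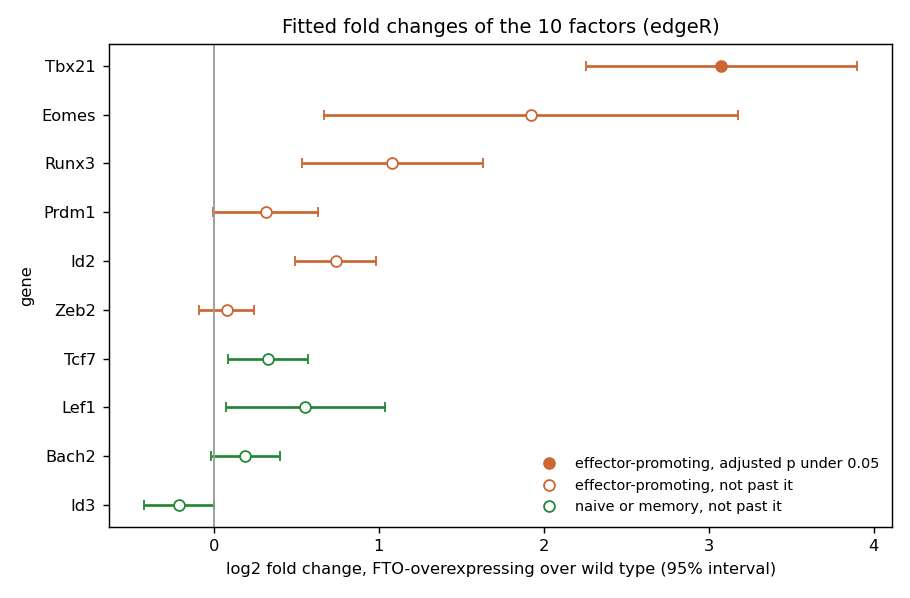
Fitted log2 fold changes of the 10 factors (horizontal axis, FTO-overexpressing over wild type) with 95% intervals from edgeR, orange for effector-promoting and green for naive or memory factors. Tbx21 at 3.08 is the only filled point, past an adjusted p of 0.05, and Id3 at -0.21 is the only one below 0.

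Counted over the list, 1 of 10 members passed an edgeR adjusted p of 0.05 upward, where 0.0765% of all genes tested did, and 0 of 10 passed downward, where 0.0177% did. An unadjusted p under 0.05 was reached upward by 6 of 10 members (Tbx21, Eomes, Runx3, Id2, Tcf7 and Lef1), against 5.77% of all genes, and downward by 0 of 10, against 3.67%. 7 of 10 members, these 6 and Bach2, were higher in every overexpressing than in any wild-type library, against 7.96% of all genes, and 0 of 10 were lower in that sense, against 6.9%. The median log2 fold change was 0.91 over the 6 effector-promoting factors (all above 0) and 0.26 over the 4 naive or memory factors (3 above 0), against 0.0069 over all genes tested. DESeq2 called 4 members, Tbx21, Eomes, Runx3 and Id2 (adjusted p = 5.05e-16, 0.00707, 0.00263 and 8.19e-07), where it called 1.98% of all genes upward. When edgeR was run on every gene with reads, unfiltered, the same 4 members passed and 0.853% of genes were called upward. The 4 naive or memory factors were called in neither.

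Averaged over members in each library on a log2 scale centred per gene, the effector level less the naive or memory level was -0.47, -0.51 and -0.42 in wild-type replicates 1, 2 and 3 and 0.22, 0.40 and 0.78 in the overexpressing ones. The members were chosen with results of these libraries known, so this separation is a description and no support for a shift. Tbx21 reads per Tcf7 read were 0.0626, 0.0432 and 0.0498 in wild-type and 0.233, 0.341 and 0.455 in overexpressing replicates 1, 2 and 3. The lowest overexpressing ratio of this effector and naive pair was above the highest wild-type ratio.

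Summed marker RNA of T cells and of NK cells was above the wild-type range in every overexpressing library, as were 7 of the 10 members. The summed level of 15 T cell markers was 180, 166 and 128 CPM in wild-type replicates 1, 2 and 3 and 382, 496 and 792 CPM in the overexpressing ones. All 15 markers were above the wild-type range in every overexpressing library, against 7.96% of all genes. Lck, Cd8a and Cd8b1 among them passed the edgeR test over all genes, where 0.0765% of all genes were called upward. 7 NK cell markers summed to 20.01 to 45.8 CPM against 140 to 241 CPM, where only Klrk1, which CD8 T cells share, passed. In the overexpressing libraries, but not in the wild-type ones, most of that sum was Gzma. This granzyme gene, which CD8 T cells share, is also on the effector programme list. Gzma was at 19.7, 8.14 and 8.80 CPM in wild-type replicates 1, 2 and 3 and at 82.2, 96.0 and 160 CPM in the overexpressing ones. Of the 7 markers, 4 were higher in every overexpressing than in any wild-type library: Gzma, Klrk1, Klrd1 and Klre1. Klre1 had a fold change of 2.87 (edgeR adjusted p = 0.443). The groups overlapped for Ncr1, Klrb1c and Klra8, although all 7 fold changes were above 1. In each of these genes only wild-type replicate 1 reached into the overexpressing range. Apart from Klrk1, the NK cell markers named here were singled out after their values were seen. Ncr1 was at 2.66, 0.788 and 0.550 CPM in wild-type replicates 1, 2 and 3 and at 3.40, 2.96 and 1.98 CPM in the overexpressing ones. None of the markers in the 14 cell type lists was at 0 in every library. Endothelial markers summed to 3849 to 4003 CPM against 3356 to 3699 CPM, and alveolar epithelial markers to 18021 to 20207 CPM against 15611 to 18889 CPM. The part of cell numbers in the members' levels was not tested beyond the ratios that follow.

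**Figure D3:**
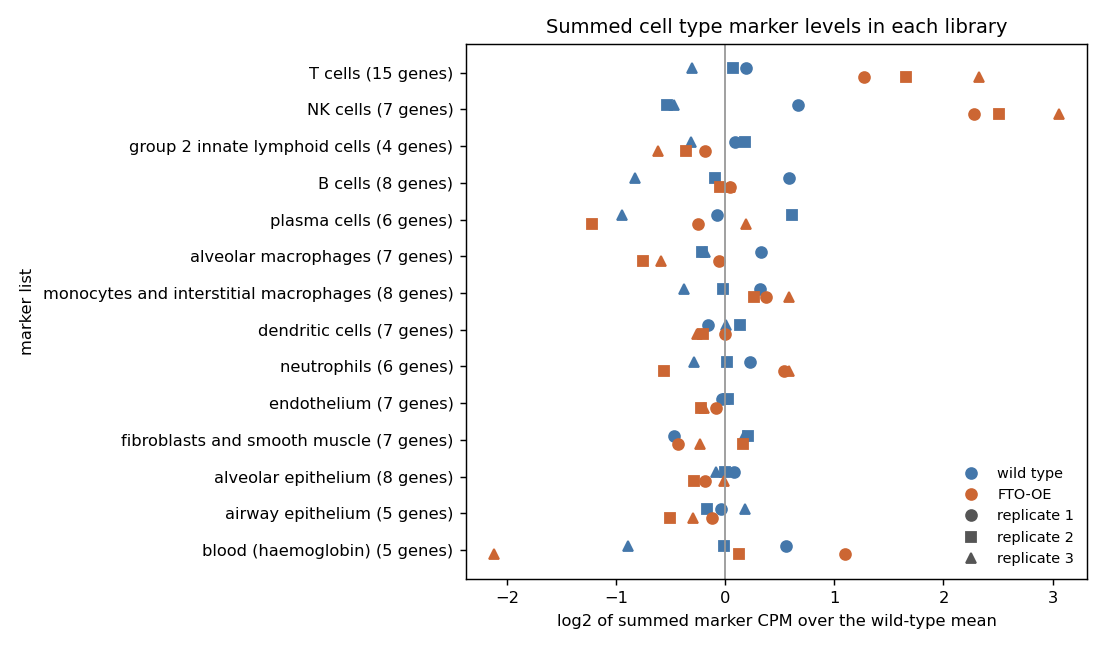
Summed CPM of cell type marker lists in each library, as log2 of the ratio to the wild-type mean (horizontal axis), wild type in blue and FTO-overexpressing in orange, 1 symbol shape per replicate number. T cell sums (382 to 792 CPM) and NK cell sums (140 to 241 CPM) lie above all wild-type sums, while B cell sums of the overexpressing libraries fall inside the wild-type range.

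To set each factor against the T cell content of its own library, its reads were divided by the summed reads of Cd3d, Cd3e and Cd3g, the invariant chains of the T cell receptor complex. This ratio does not depend on library scaling. The denominator was 32.3, 30.5 and 22.9 CPM in wild-type replicates 1, 2 and 3 and 67.6, 84.0 and 146 CPM in the overexpressing ones. Because CD3 itself was higher, 92.1% of all genes tested had a lower ratio in every overexpressing library and 0.177% a higher one, so a lower ratio says little about a member and a higher one is rare.

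Tbx21 was the only member with a higher ratio to CD3. It was 0.0771, 0.0534 and 0.0743 in wild-type replicates 1, 2 and 3 and 0.151, 0.178 and 0.165 in the overexpressing ones, 2.44-fold higher by geometric means, without overlap. In an exact permutation test, two-sided, p was 0.1, the smallest that 3 against 3 libraries can give, and 0.111 after adjustment over the 10 members. Leaving out any 1 library kept the ratio between 2.17-fold and 2.61-fold higher. Against Cd8a plus Cd8b1, the CD8 co-receptor chains, the Tbx21 ratio was 0.1201, 0.139 and 0.104 in wild-type replicates 1, 2 and 3 and 0.135, 0.119 and 0.140 in the overexpressing ones, with overlapping groups and a geometric mean ratio of 1.09 (exact permutation p = 0.5). The separation seen against CD3 was therefore not present against CD8.

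The Eomes ratio to CD3 was 0.0469, 0.0602 and 0.110 in wild-type replicates 1, 2 and 3 and 0.0458, 0.0643 and 0.0946 in the overexpressing ones. The groups overlapped almost fully, with a geometric mean ratio of 0.963 (exact permutation p = 0.9) that ran from 0.801 to 1.23 when 1 library was left out, so its direction was not fixed. Against Cd8a plus Cd8b1 it was 0.430, with overlapping groups (exact permutation p = 0.2). The remaining 8 members had lower ratios in every overexpressing library, as most genes did. Among them the ratio of overexpressing to wild-type geometric means was 0.623 for Runx3, 0.502 for Id2, 0.433 for Lef1 and 0.378 for Tcf7, down to 0.261 for Id3 (exact permutation p = 0.1 for each). With Cd8a plus Cd8b1 as the denominator, the ratio of geometric means of every gene falls by the same factor. This is because CD8 differed more between the groups than CD3. The ratios were then 0.278 for Runx3, 0.224 for Id2, 0.193 for Lef1, 0.169 for Tcf7 and 0.117 for Id3, which adds nothing about single members. Reads from other lung cells that express these genes enter every ratio. For the naive factors Tcf7 and Lef1 the ratios in single libraries were 1.23, 1.23 and 1.49 against 0.647, 0.522 and 0.362 and 0.317, 0.323 and 0.380 against 0.162, 0.153 and 0.128.

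**Figure D4:**
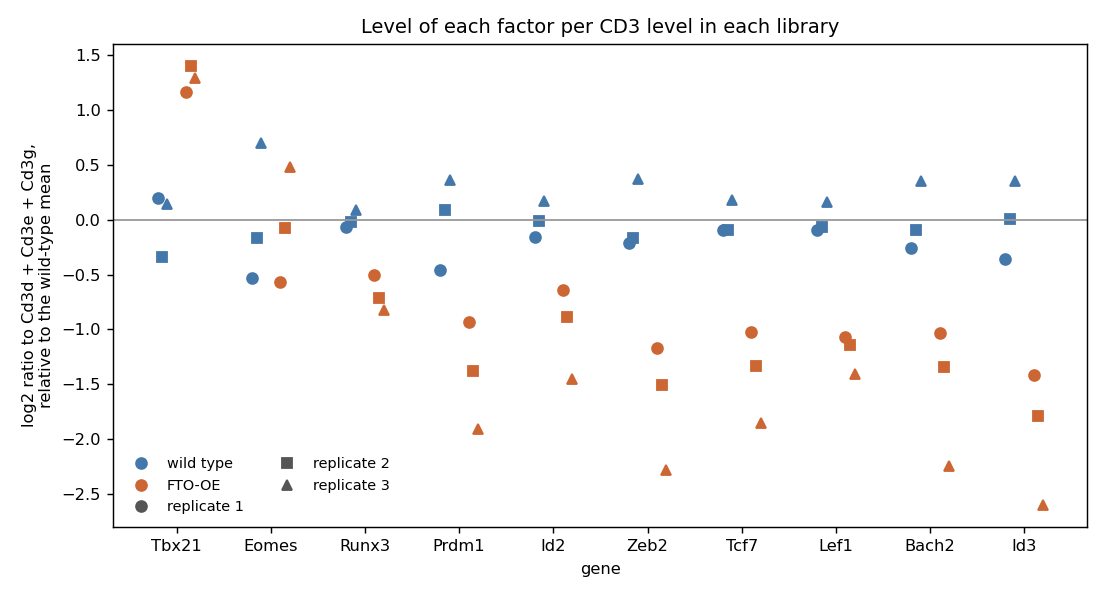
Ratio of each factor's reads to the summed reads of Cd3d, Cd3e and Cd3g in each library, as log2 relative to the wild-type mean (vertical axis), wild type in blue and FTO-overexpressing in orange. Tbx21 lies above the wild-type libraries (2.44-fold by geometric means), Eomes overlaps them (0.963), and the other 8 genes lie below, as 92.1% of all genes did.

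Genes that these factors control or act beside were read from lists made with the earlier results known. Of 21 effector programme genes, 5 rose over all genes, where 0.0765% of all genes tested were called upward: Ccl5, the T cell chemokine, at 14.7-fold, Klrg1, a receptor of terminal effector cells, at 11.05-fold, Ifng, the cytokine interferon gamma, at 9.89-fold, Fasl, a death ligand, at 4.90-fold and Cxcr6, a chemokine receptor of tissue-resident T cells, at 3.35-fold. The fold change of Ifng rests on few reads: 6, 3 and 7 in wild-type and 49, 47 and 77 in overexpressing replicates 1, 2 and 3 (95% interval 5.39 to 18.2). The edgeR adjusted p of the 5 genes lay between 0.0179 and 0.0362. The count of genes called was 0 without wild-type replicate 2 or 3 or overexpressing replicate 2, 3 without overexpressing replicate 3 and 8 without overexpressing replicate 1. DESeq2 called 16 of the 21, against 1.98% of all genes upward, and limma-voom called 1. 17 of the 21 were above the wild-type range in every overexpressing library, against 7.96% of all genes, and the list median was 3.93-fold against 1.00-fold over all genes tested. The residence integrin genes Itgae and Itga1, also chosen after their values were seen, had fold changes of 0.770 and 0.959, with overlapping groups. Itga1 was at 388 to 444 CPM in wild-type and 384 to 399 CPM in overexpressing libraries, far above the summed CD3 genes. Its reads need not come from T cells, and their source was not tested.

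Of 15 naive and memory programme genes, 13 passed the filter on low counts and 0 passed in edgeR over all genes. An unadjusted p under 0.05 was reached upward by 5 (38.5% of those tested), against 5.77% of all genes, and downward by 2 (15.4%), against 3.67%. DESeq2 called 3, where it called 424 of 16982 genes in either direction. The median fold change was 1.07. The 3 with the smallest p went both ways. The co-stimulatory receptor genes Cd28 and Cd27 had fold changes of 2.64 and 3.19 and Il6ra, the interleukin 6 receptor gene that hepatocytes and myeloid cells also carry, one of 0.784 (edgeR adjusted p = 0.208, 0.228 and 0.239). Cd28 was at 13.5, 14.0 and 8.25 CPM in wild-type replicates 1, 2 and 3 and at 19.9, 27.0 and 47.4 CPM in the overexpressing ones.

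Of 39 other lymphocyte transcription factors, 0 passed over all genes in edgeR. An unadjusted p under 0.05 was reached upward by 15 (38.5%), against 5.77% of all genes, and downward by 1 (2.56%), against 3.67%. DESeq2 called 9, where it called 424 of 16982 genes in either direction. The median fold change was 1.14. The 3 with the smallest p were Bcl11b, which holds T cell identity, at 2.89-fold, Ikzf3, the lymphoid factor Aiolos, at 2.71-fold, and Stat4, the interleukin 12 signal transducer that induces Tbx21, at 2.85-fold (edgeR adjusted p = 0.0970, 0.107 and 0.114). Stat4 was at 10.1, 7.25 and 5.23 CPM in wild-type replicates 1, 2 and 3 and at 18.2, 18.3 and 27.9 CPM in the overexpressing ones, without overlap. Of 15 partners and repressors of the members, 0 passed in edgeR. An unadjusted p under 0.05 was reached upward by 2 (13.3%), against 5.77% of all genes, and downward by 3 (20%), against 3.67%. DESeq2 called 1, and the median fold change was 1.03. Their smallest p values belonged to Ezh2, a histone methyltransferase of dividing cells, at 1.63-fold, Id1, a relative of Id2 and Id3, at 0.712-fold and Tle1, a co-repressor that binds TCF and RUNX factors, at 0.853-fold (edgeR adjusted p = 0.150, 0.313 and 0.498). Id1 was at 55.4, 78.0 and 60.3 CPM in wild-type replicates 1, 2 and 3 and at 51.6, 46.4 and 40.1 CPM in the overexpressing ones, lower in each of them, so its direction was opposite to that of Id2.

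**Figure D5:**
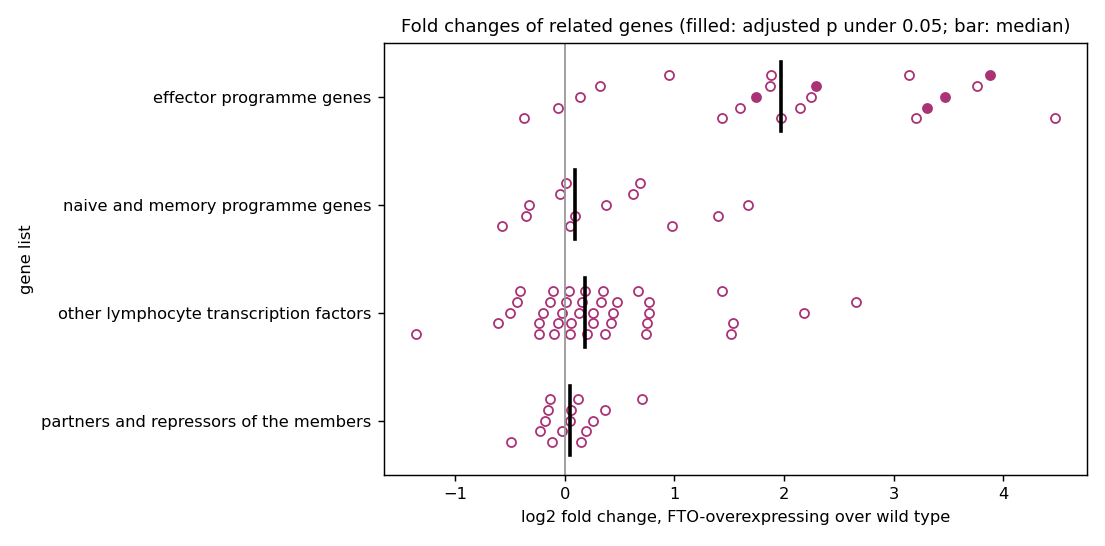
Log2 fold changes (horizontal axis, FTO-overexpressing over wild type) of each tested gene in 4 related lists, filled where the edgeR adjusted p is under 0.05, with a black bar at the median. The median of the effector programme genes is 1.98, and those of the other 3 lists lie between 0.045 and 0.18.

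The genes most like Tbx21 across the 6 libraries, by root mean square distance of centred log2 CPM among 13319 genes, were Cd8a (distance 0.177), Ms4a4b, a membrane protein gene of T cells (0.178), and Cd8b1 (0.183). Cd8a was at 12.6, 7.41 and 9.41 CPM in wild-type replicates 1, 2 and 3 and at 42.6, 73.1 and 91.3 CPM in the overexpressing ones. The genes most like Tcf7 were Smap2 (0.0204), Xrn2 (0.0255) and Shisa5 (0.0298), with fold changes of 1.24, 1.26 and 1.27, all short of the threshold (edgeR adjusted p = 0.365, 0.270 and 0.383). Distances are smaller for Tcf7 because it varied less.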

How the data were processed

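RNA was measured in 6 smoke-exposed mouse lung samples, 3 per genotype, with a stranded mRNA library kit per the labels' protocols. The authors deposited expected counts, estimated reads per gene that need not be whole (9.66% to 10.3% of rows per library) and are not scaled. The submitters' processing notes name fastp, HISAT2 and StringTie. Build, annotation, counting program and use of strand are not given in the sources, and overlapping genes may share reads. 525 rows without a symbol (0.119% to 0.143% of counts) were kept under their identifiers.

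Counts were rounded and tested in R 4.3.3 with edgeR 4.0.16 (default filter by group, TMM scaling, quasi-likelihood F-test, group as the only term), adjusted by Benjamini-Hochberg over 16989 genes at a threshold of 0.05. SE and 95% intervals were derived from each fitted change and its F value. Levels are TMM-normalised CPM. Alternatives used other scalings, filters, a replicate block, limma-voom (limma 3.58.1), DESeq2 1.42.0 and each library left out. Ratios to CD3 were tested by exact permutation. Chi-square per degree of freedom between libraries of 1 group was 27.8 to 48.6, above counting error, so none was a duplicate. Across the groups it was 20.7 to 46.6, lowest for replicate 1 of each group. Wild-type replicate 3 and overexpressing replicate 2, at 27.0, were also more alike than any pair within a group.

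The members and lists were chosen with earlier results of these data known, and the list of partners and repressors was added after seeing the data. Named were all members, Fto, the CD3 genes, in each list the genes past the threshold or else the 3 with the smallest p, and the 3 genes nearest to Tbx21 and Tcf7 in centred log2 CPM (average log2 CPM of at least 1). Other names were chosen after their values were seen.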

Additional observations from a re-analysis of the deposited data

How the results depend on the processing

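The direction of each of the 10 members held in all 15 alternatives, and 137 of 150 member values kept their side of the threshold. Most of these values belong to members not called in the main fit. Tbx21, the only member called there, kept its call in 8 alternatives and lost it in 7. The number of genes called over the table, 16, was 287 without a filter on low counts, 31 after removal of haemoglobin, immunoglobulin and mitochondrial genes, 5 with limma-voom, 424 with DESeq2, 2 with a replicate block and 1 to 49 when 1 library was left out. The number of members called, 1, was 4 without a filter, 4 with DESeq2, 0 with limma-voom, 0 with a replicate block and 0 to 1 when 1 library was left out. The cause of these differences was not tested. With the block the adjusted p of Tbx21 was 0.129 at 8.03-fold. The labels do not say whether replicate numbers pair the libraries. Deviations from the group means correlated at 0.0984, -0.265 and -0.268 for the same number, and 2 of the 6 libraries, replicate 1 of each group, correlated best with their own number. With 3 libraries per group these correlations cannot settle whether the numbers pair samples. The count of members whose ratio to CD3 did not overlap, 9, was 8 with Cd8a plus Cd8b1 as the denominator and 9 in the other alternatives. Against CD3, 92.1% of all genes were lower in every overexpressing library and 0.177% higher, so this count says little about the members. No such share is given here for the other denominators. Other scalings moved the median gene by at most 0.033 on the log2 scale. Among the members, depth limits Tbx21 and Eomes most: wild-type libraries held 31 to 46 and 28 to 46 of their reads.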

Other observations

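Several T cell regulators outside the naming rule were looked at after their values were seen. Zfp683, which encodes the residence factor Hobit, was listed at 0.163, 0.210 and 0.0550 CPM in wild-type replicates 1, 2 and 3 and at 0.661, 1.25 and 0.922 CPM in the overexpressing ones, a fold change of 6.32 that did not pass over all genes (edgeR adjusted p = 0.136). This fold change rests on few reads: 3, 4 and 1 in wild-type and 13, 22 and 20 in overexpressing replicates 1, 2 and 3. Gfi1, a repressor in activated lymphocytes and myeloid cells, had a fold change of 4.54 (edgeR adjusted p = 0.150). Foxp3, the factor of regulatory T cells, was at 0.488, 1.10 and 0.935 CPM against 1.37, 0.967 and 0.231 CPM, with overlapping groups and a fold change of 1.01 (edgeR adjusted p = 0.998).

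Of the genes of naive T cell traffic, 3 with fold changes below 1 were also looked at after their values were seen. Klf2, which sustains the exit receptors of naive T cells and is also abundant in endothelium, was at 159, 103 and 108 CPM in wild-type replicates 1, 2 and 3 and at 68.6, 76.9 and 97.7 CPM in the overexpressing ones (0.656-fold, edgeR adjusted p = 0.350). S1pr1, an exit receptor gene that endothelium shares, had a fold change of 0.795 (edgeR adjusted p = 0.410). Ccr7, a homing receptor gene of naive T cells and dendritic cells, was at 14.9, 8.77 and 6.55 CPM against 6.50, 6.31 and 7.42 CPM, a fold change of 0.670 with overlapping groups (edgeR adjusted p = 0.617).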
